A study of Mus musculus with 4 samples.

Results

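Gamma-delta (γδ) T cells of the mouse hindpaw were split by their own Il17a transcripts, and the cells that held the transcript were compared with those that did not. A cell entered the gate with at least 200 genes, at most 10% mitochondrial UMIs (unique molecular identifiers, each of which marks 1 captured transcript), at least 1 UMI of Trdc, at least 1 UMI of Cd3e or Cd3g, at least 1 UMI of Cd163l1, Il23r or Blk, and fewer than 5 UMIs of the macrophage genes C1qa, C1qb and C1qc together. This gate held 3830 of the 27800 cells within the limits on genes and mitochondrial UMIs. Cells were then chosen by Il17a itself: 422 with at least 2 UMIs were called Il17a-positive, 3270 with none were called Il17a-negative, and 138 with exactly 1 UMI were left out of the comparison. Il17a is therefore described and not tested.

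The cells were CD45+ leukocytes sorted from the hindpaws of male C57BLKS/J mice and profiled by droplet single-cell RNA-seq. DB mice carried Lepr db on both alleles, which disables the leptin receptor and leads to obesity and diabetes, and WT littermates served as controls. Each genotype was sampled at 12 and at 21 weeks of age. There was 1 library per condition, made from the pooled tissue of 2 to 3 mice, so no level was tested between conditions, and the replicates of the Il17a comparison were the 4 libraries, each of which gave a positive and a negative sum. The libraries held 5998 to 9124 barcodes with a median of 5108 to 7187.5 UMIs, and their headers record Cell Ranger 5.0.0 at 12 weeks and 6.0.0 at 21 weeks, so that software version and age cannot be told apart. Lepr had 16 to 30 UMIs in all cells of a library, and the db allele changes splicing rather than removing the transcript, so these counts do not check the genotype. Between 6 and 154 barcodes were shared by any pair of libraries, the most by 21-week-WT and 21-week-DB. In the gate, 5, 8, 5 and 15 cells carried a shared barcode (12-week-WT and 12-week-DB, then 21-week-WT and 21-week-DB, the order used for all lists of values), of which 1, 0, 1 and 3 were Il17a-positive.

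IL-17A is the signature cytokine of type 17 lymphocytes and acts on epithelial and stromal cells to induce neutrophil-attracting chemokines and antimicrobial peptides. In mouse skin, γδ T cells that carry the Vγ6 or Vγ4 chain and reside in the dermis are programmed for IL-17A in the thymus with the transcription factors c-Maf (Maf) and Sox13 taking part, and they respond to IL-23 and IL-1β without prior antigen exposure. The epidermis holds another γδ lineage, the dendritic epidermal T cells (DETC), which carry Vγ5 and are known for cytotoxic and growth factor genes instead. Il17a and its closest relative Il17f are neighbours in the genome and are transcribed from opposite strands.

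In GENCODE vM21 (GRCm38), Il17a lies at chr1:20730905-20734496 on the plus strand and Il17f at chr1:20777146-20790617 on the minus strand. The 150 bases just before each RefSeq start (build GRCm38.p6) are shown because Il17a split the cells and Il17f moved with it by the largest rise of the comparison. The RefSeq start of Il17f lies within the GENCODE span given above, so its window is inside that span. The Il17a window adjoins the span of Il17a. Capitals mark AGGTCA or its reverse complement TGACCT, a core element bound by many nuclear receptors, which was searched on both strands.
Il17a (chr1:20730755-20730904, plus strand): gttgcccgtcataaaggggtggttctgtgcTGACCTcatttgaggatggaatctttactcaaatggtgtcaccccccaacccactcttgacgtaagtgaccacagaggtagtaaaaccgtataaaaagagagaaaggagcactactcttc
Il17f (chr1:20784271-20784420, minus strand): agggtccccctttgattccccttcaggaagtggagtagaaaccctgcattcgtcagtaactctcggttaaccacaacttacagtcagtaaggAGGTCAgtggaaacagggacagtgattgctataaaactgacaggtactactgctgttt
Each window held 1 match, which began 120 bases before the start of Il17a and 58 bases before that of Il17f. The same letters were found in 2820 of 32851 RefSeq windows of this length (8.58%), and a match is a description of the letters and not a binding site.

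Il17a-positive cells made up 14.6%, 5.48%, 15.6% and 10.5% of the gate in the 4 libraries. The exact 95% Clopper-Pearson intervals were 11.6 to 18.0%, 4.13 to 7.11%, 13.3 to 18.1% and 8.97 to 12.2%, which cover counting error only and not the spread between mice. At each age the share was lower in the DB library than in the WT library, and the intervals did not overlap. The summed Il17a level of the gate was 366, 166, 288 and 265 CPM (counts per 1000000 UMIs of the summed cells), so the difference between the 21-week libraries was smaller in the level than in the share of cells. Il17a was concentrated in few cells. Positive cells had a median of 7 to 8 Il17a UMIs and a maximum of 140 to 225, and they held 97.7 to 98.6% of all Il17a UMIs of the gate. At the threshold, 8, 5, 32 and 20 positive cells had exactly 2 UMIs, and 18, 16, 52 and 52 cells just outside it had 1.

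The gate in turn held 79.5 to 86.3% of the Il17a UMIs of a whole library. As a measure of free RNA, at least 2 Il17a UMIs were found in 0.168 to 0.457% of C1q-rich cells, whose median depth of 9307 to 10857 UMIs was above that of the γδ T cells, and in 0 of 377, 132, 242 and 86 cells with B cell markers, which allows shares of up to 0.796%, 2.27%, 1.24% and 3.49%. Positive cells were somewhat deeper than negative cells (medians of 8156.5, 6457, 7584 and 5878 against 6258, 5594, 7281 and 5409.5 UMIs). After each cell was thinned to 2000 UMIs the positive share was 8.98%, 3.68%, 8.43% and 6.70%, lower in the DB library at both ages, but at 21 weeks the intervals overlapped (6.73 to 10.4% and 5.44 to 8.15%). Cells below that depth were left out of it, 4, 17, 6 and 53 of the gate.

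The gate also held cells with markers of the epidermal lineage, and their share differed between positive and negative cells. Of the markers the rule did not use, Trdv4, a δ chain segment that pairs with both Vγ5 and Vγ6, was detected in 75.0%, 90.6%, 77.6% and 94.0% of positive and 72.3%, 80.4%, 74.1% and 86.9% of negative cells. Tcrg-V6 was detected in 8.16 to 32.7% of positive and 12.8 to 30.4% of negative cells, and Trac, the αβ receptor constant chain, in 19.7 to 28.7% and 16.0 to 21.4%. The αβ lineage genes Cd4, Cd8a, Cd8b1 and Foxp3 each had 0 to 9 UMIs in the positive cells of a library. Cells with at least 1 UMI of Tcrg-V5, Cd7 or Fermt2 were called DETC-like, a label added after these values were seen. They made up 16.7%, 13.2%, 4.76% and 12% of positive cells but 36.9%, 58.1%, 18.5% and 27.0% of negative cells, more of the negative cells in all 4 libraries. The 12, 7, 7 and 18 DETC-like positive cells were marked mostly by Cd7, detected in 9, 4, 6 and 17 positive cells. Fermt2 was detected in 1, 1, 1 and 0 positive cells and Tcrg-V5 in 3, 3, 1 and 1. In negative cells Tcrg-V5 was detected in 5.45%, 10.1%, 2.42% and 7.92%. The label thus describes marker transcripts, and the lineage of these cells was not tested. Without DETC-like cells the positive share was 18.2%, 10.6%, 17.7% and 12.3%. The intervals of 12-week-WT (14.2 to 22.8%) and 12-week-DB (7.86 to 13.9%) then still did not overlap, nor did those of 21-week-WT (15.1 to 20.5%) and 21-week-DB (10.4 to 14.5%). Because so much of the negative group was DETC-like, the counts of the gene lists below are given for the whole gate and, where they differ, without these cells.

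**Figure D1:**
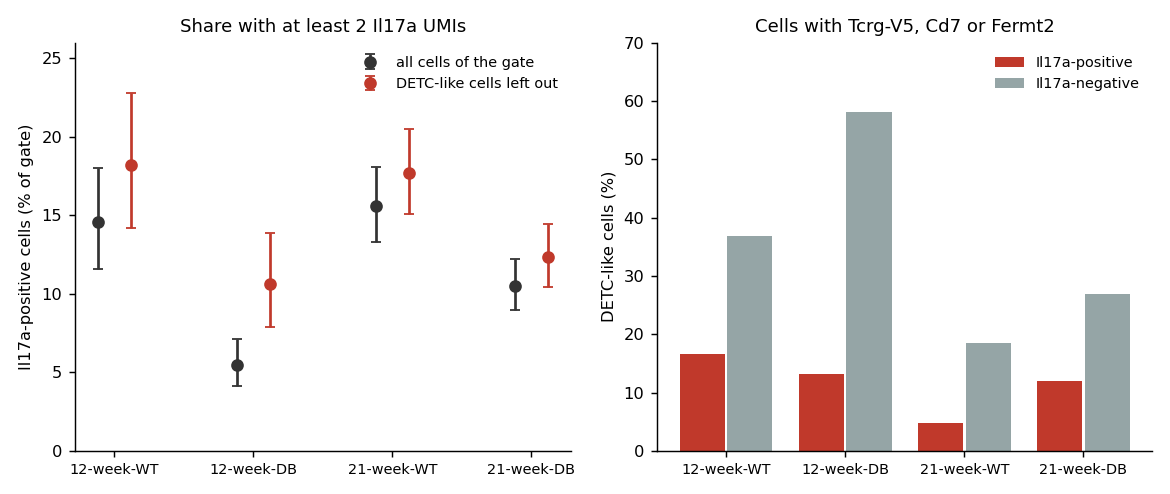
Left, Il17a-positive cells as a percentage of the gate in each library (points, with exact 95% intervals as bars) for all cells and with DETC-like cells left out. Right, DETC-like cells as a percentage of Il17a-positive and Il17a-negative cells in each library. The positive share was 5.48% in 12-week-DB against 14.6% in 12-week-WT, and DETC-like cells reached 58.1% of the negative cells of 12-week-DB.

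Counts were summed over positive and over negative cells in each library and entered a quasi-likelihood test in edgeR, with library as the blocking factor. Of 9613 genes tested, 381 were higher (3.96%) and 188 lower (1.96%) in Il17a-positive cells (Benjamini-Hochberg adjusted p under 0.05). Without DETC-like cells, 754 of 8882 genes were higher (8.49%) and 229 lower (2.58%). The share called higher was thus larger over all genes in that fit, and its list counts below are to be read against these shares. Of the 381 genes higher in the whole gate, 351 were called higher in both fits, and of the 188 lower, 42 were called lower in both and 67 were too low to be tested without DETC-like cells. Most of the rises were thus called in both fits and most of the falls were not. The DETC-like label uses Fermt2 and Cd7, both among the 10 largest falls of this same comparison. Part of the weakening of the falls was therefore fixed by that definition, and it is not a separate result. Of the 188 lower genes, 75 had fewer than 10 UMIs in every positive sum and so passed the filter on low counts through the negative cells alone. None of the 381 higher genes had so few UMIs in every negative sum. The negative sums were larger (2801090 to 7471560 UMIs against 409487 to 1269980), so 10 UMIs is a lower level in them and these 2 counts cannot be compared. Negative cells matched to the positive cells on depth gave 385 higher and 153 lower genes, and cells thinned to 2000 UMIs gave 271 and 96. Without 21-week-DB there were 214 higher genes and without 21-week-WT 248. With cells of shared barcodes left out the counts were 381 and 191. With total UMIs in place of TMM scaling the counts were 259 higher and 266 lower, and the median log2 difference over all tested genes was -0.15 rather than -0.03.

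**Figure D2:**
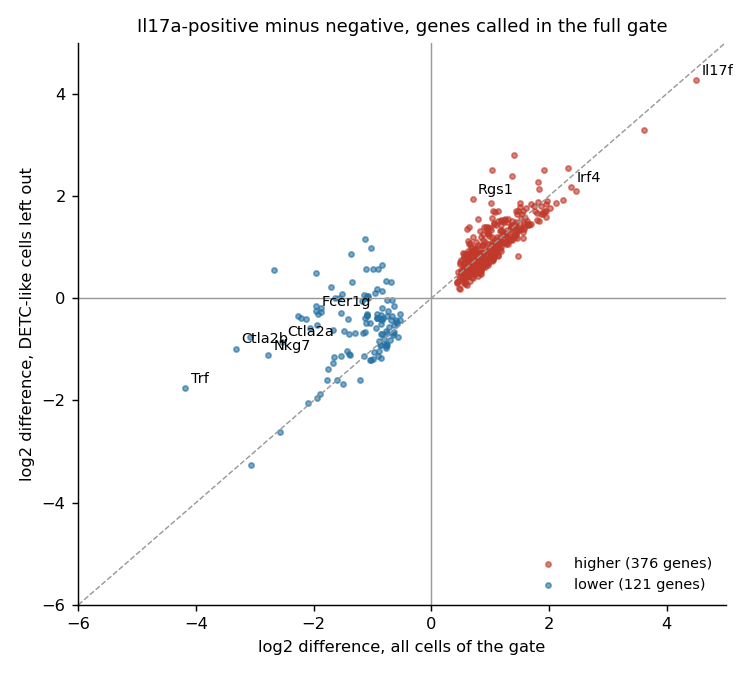
Log2 difference (Il17a-positive minus negative) of the genes called in the whole gate, with all cells of the gate on the x axis and DETC-like cells left out on the y axis. Each point is 1 gene with a value in both fits, and the dashed line marks equal values. The 376 genes higher in positive cells lay near the line (medians of 0.91 and 0.90), while the 121 lower genes moved towards 0 (medians of -1.07 and -0.49), and 100 of them kept their sign. DETC-like cells were defined with genes among the largest falls, so part of that movement was fixed by the definition.

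Among the type 17 cytokines, 5 of 10 tested members were higher and none lower, with a median log2 difference of 1.04 over the list. Il17f, the cytokine that pairs with IL-17A, stood at 809, 593, 448 and 266 CPM in positive cells and at 61.4, 10.7, 18.3 and 21.1 CPM in negative cells. Every positive sum was above every negative sum, and the log2 difference was 4.50 ± 0.28 (moderated SE, 4 pairs, adjusted p = 3.57e-07, edgeR). The log2 ratios within the 4 libraries were 3.72, 5.78, 4.61 and 3.65. Il17f was detected in 50%, 56.6%, 34.7% and 30.7% of positive cells against 11.9%, 3.34%, 5.65% and 3.84% of negative cells. Thinning cells to 2000 UMIs gave 40.9%, 37.1%, 20.3% and 23.9% against 7.36%, 1.78%, 3.35% and 2.27%. Cells with exactly 1 Il17a UMI, which were in neither group, had 287, 42.5, 45.7 and 39.8 CPM of Il17f, between the negative and positive levels in all 4 libraries.

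Tnfsf11, which encodes the osteoclast factor RANKL, was at 175, 151, 212 and 159 CPM in positive and 81.8, 56.8, 76.4 and 51.3 CPM in negative cells, without overlap (log2 difference 1.53 ± 0.14, adjusted p = 5.39e-06, edgeR). Il22, which acts on keratinocytes, was at 69.5, 75.7, 76.4 and 59.9 CPM against 16.8, 32.7, 40.1 and 21.8 CPM, again without overlap (1.47 ± 0.19, adjusted p = 0.000157, edgeR). Few cells carried it. In each library 1 cell held a large part of the Il22 UMIs of the positive cells (19 of 42, 13 of 31, 44 of 97 and 36 of 58). Il22 was detected in 6 to 18 positive cells a library. Without DETC-like cells, 21-week-DB had 25.8 CPM in positive and 24.7 CPM in negative cells, and the log2 difference was 0.82 ± 0.20 (adjusted p = 0.00862, edgeR). Lif (1.29 ± 0.18) and Tnf (0.85 ± 0.14) were the other members called higher, with Tnf at 376 to 481 CPM in positive and 173 to 300 CPM in negative cells.

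Csf2, which encodes GM-CSF, did not pass the test (67.8, 127, 54.3 and 39.2 CPM against 66.4, 35.3, 42.7 and 29.2 CPM, adjusted p = 0.0839, edgeR), nor did Ccl20 (0.82 ± 0.62), Il10 (1.12 ± 0.45) or Tgfb1 (0.44 ± 0.14). Il21, Il6 and Ifng were too low to be tested. Areg, the epidermal growth factor receptor ligand amphiregulin, differed between the fits. Its positive sums were 256, 92.8, 501 and 798 CPM and its negative sums 111, 317, 140 and 341 CPM, so that 12-week-DB ran against the other libraries and the gene was not called (0.95 ± 0.36, adjusted p = 0.168, edgeR). Without DETC-like cells it was at 293, 85.7, 493 and 763 CPM against 34.7, 37.3, 99.4 and 186 CPM, higher in all 4 libraries (2.32 ± 0.16, adjusted p = 3.33e-09, edgeR). Il10 and Tgfb1 were also called higher in that fit, which brought the list to 8 of 10.

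Of 15 transcription factors of the type 17 programme tested, 11 were higher and none lower, with a list median of 0.84. Irf4, which is induced by T cell receptor signals, rose most, from 20.7, 19.9, 42.4 and 22.9 CPM in negative to 157, 169, 128 and 75.4 CPM in positive cells (2.38 ± 0.23, adjusted p = 1.17e-05, edgeR). Bhlhe40 rose from 152, 124, 201 and 93.2 CPM to 442, 484, 544 and 318 CPM (1.79 ± 0.14). Nfkbiz, which encodes the nuclear NF-κB cofactor IκBζ, rose from 148, 156, 262 and 307 CPM to 493, 557, 641 and 779 CPM (1.66 ± 0.14). In each of the 3 genes no negative sum reached a positive sum. Rbpj (1.23 ± 0.12), Rora (1.15 ± 0.14), Batf (1.06 ± 0.18), Hif1a (0.85 ± 0.13), Zbtb16 (0.84 ± 0.17), Runx1 (0.75 ± 0.13), Stat3 (0.55 ± 0.15) and Id2 (0.44 ± 0.12) were also higher, and all of these but Zbtb16 were called without DETC-like cells as well. In the whole gate Stat3 ran lower in positive cells of 12-week-DB (217 against 243 CPM).

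The lineage factors Maf and Sox13 did not pass the test. Maf was at 1219, 1370, 953 and 886 CPM in positive and 1154, 806, 799 and 723 CPM in negative cells (0.47 ± 0.14, adjusted p = 0.0581, edgeR). It was higher in positive cells of all 4 libraries, although the ranges of the groups overlapped. Sox13 was at 129, 105, 109 and 56.8 CPM against 123, 75.1, 92.8 and 69.1 CPM (0.24 ± 0.15, adjusted p = 0.435, edgeR). These differences were small beside those of Irf4 or Bhlhe40, and without DETC-like cells they were 0.13 ± 0.10 and -0.11 ± 0.13. Ahr (-0.54 ± 0.19) and Sox4 (-0.89 ± 0.57) did not pass either, and Ahr was at 0.07 ± 0.21 without DETC-like cells.

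**Figure D3:**
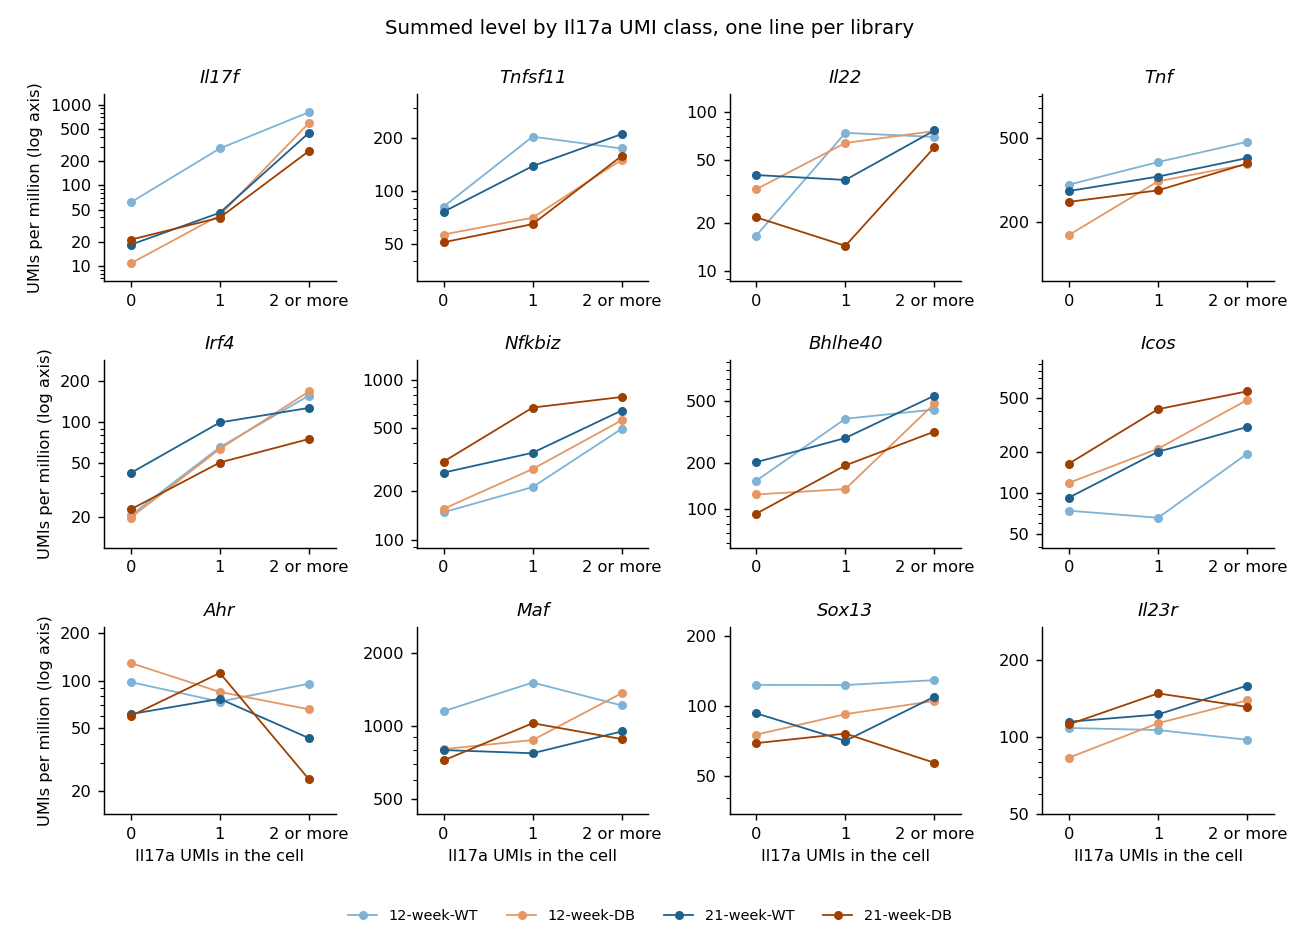
Summed level in CPM (log axis, a scale of its own in each panel) of 12 genes in cells with 0, 1 and 2 or more Il17a UMIs, with 1 line per library. The genes of the upper rows were higher at 2 or more UMIs than at 0 in every library (Il17f at 266 to 809 against 10.7 to 61.4 CPM). The ranges of Ahr, Maf, Sox13 and Il23r in the lowest row overlapped between the classes. Within every library Maf was nonetheless higher, and Ahr lower, at 2 or more UMIs than at 0.

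The genes of the gate were used to choose the cells and are given without a test. Il23r, the receptor chain for IL-23, was at 97.6, 139, 159 and 131 CPM in positive and 109, 83.1, 115 and 112 CPM in negative cells, Cd163l1 (the scavenger receptor SCART1) at 661 to 879 and 622 to 837 CPM, Blk at 153 to 263 and 137 to 272 CPM, and Trdc at 1278 to 1705 and 1228 to 1557 CPM. The ranges of all 4 overlapped between the groups, with Trdc slightly higher in positive cells of every library. Cd3e, a signalling chain of the receptor complex, was at 415, 383, 374 and 366 CPM in positive and 828, 1149, 406 and 529 CPM in negative cells, lower in positive cells of each library, and without DETC-like cells at 422, 354, 369 and 359 against 446, 454, 365 and 413 CPM.

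Of 17 cytokine and chemokine receptors tested, 4 were higher and 2 lower, and 1 of the lower passed the filter through the negative cells alone. Il21r rose from 17.9, 22.7, 21.5 and 44.6 CPM to 74.4, 73.3, 66.9 and 165 CPM without overlap (1.94 ± 0.16, adjusted p = 2.72e-06, edgeR). Il1r1, the receptor for IL-1β, rose from 68.5, 55.9, 69.7 and 82.4 CPM to 136, 142, 126 and 155 CPM without overlap (1.13 ± 0.14, adjusted p = 9.71e-05, edgeR). The IL-2 receptor chains Il2ra (0.96 ± 0.12) and Il2rb (0.65 ± 0.18) were higher as well, although Il2rb ran lower in positive cells of 12-week-DB (454 against 512 CPM). Il6st and Il6ra (-1.12 ± 0.24), the 2 chains of the IL-6 receptor, were called lower in the whole gate. Il6st had 7, 3, 5 and 2 UMIs in positive cells, so it was the member that passed through the negative cells alone, and its call carries no fold here. Without DETC-like cells Il6st and Il6ra were not called (adjusted p = 0.379 and 0.215, edgeR). Ccr6, the receptor for Ccl20, did not pass in the whole gate (-0.20 ± 0.14) and was lower without DETC-like cells (-0.50 ± 0.13, adjusted p = 0.0149, edgeR).

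Of 20 genes induced by T cell receptor signalling and costimulation, 12 were called higher and 1 lower, with a list median of 1.04. Icos, a costimulatory receptor, rose from 73.9, 119, 92.5 and 165 CPM to 195, 486, 307 and 563 CPM, every positive sum above every negative sum (1.87 ± 0.14, adjusted p = 2.05e-06, edgeR). Nr4a1, an immediate target of the receptor, was detected in 84.9 to 94.0% of positive and 55.3 to 61.2% of negative cells (1.43 ± 0.14), and in 68.6 to 84.1% and 35.3 to 41.1% of cells thinned to 2000 UMIs. Egr3 (1.83 ± 0.28), the phosphatase Dusp4 (1.63 ± 0.15) and the NF-κB subunit Rel (1.43 ± 0.13) were higher in all 4 libraries. Spry2, a feedback inhibitor, was the member called lower (-1.37 ± 0.23), and without DETC-like cells it was called higher (0.86 ± 0.21). In that fit 15 of 19 members were higher and none lower, among them Tnfrsf9, which encodes the costimulatory receptor 4-1BB, at 2.81 ± 0.21 against 1.41 ± 0.29 in the whole gate. Tnfrsf9 ran lower in positive cells of 12-week-DB in the whole gate (34.2 against 47.6 CPM).

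The NF-κB list held 10 higher and no lower genes of 14. Nfkbia, which encodes the inhibitor IκBα and is itself an NF-κB target, rose from 831, 661, 1126 and 1255 CPM to 2198, 2330, 2345 and 2888 CPM (1.49 ± 0.14, adjusted p = 8.79e-06, edgeR). Tnfaip3, which encodes the feedback inhibitor A20, rose from 747, 630, 782 and 662 CPM to 1624, 1902, 1891 and 1590 CPM (1.43 ± 0.13, adjusted p = 4.9e-06, edgeR). In both genes the groups were far apart in every library. Nfkbid (1.42 ± 0.14), Zc3h12a, which encodes the RNase Regnase-1 (1.35 ± 0.15), and Nfkb1 (1.21 ± 0.13) were also higher. Without DETC-like cells 11 of 14 were higher and 1, Tnip3, was lower.

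Of 22 early response and heat shock genes, 13 were higher and none lower. Junb, an AP-1 subunit, was at 3822 to 4860 CPM in positive and 2007 to 2811 CPM in negative cells (0.98 ± 0.12). Atf3 (1.11 ± 0.14), Ier2 (0.82 ± 0.13) and Dusp2 (0.98 ± 0.20) were higher, whereas the AP-1 subunit Fos was at 0.07 ± 0.15 (adjusted p = 0.859, edgeR). Without DETC-like cells 21 of 22 were higher, Fos (0.67 ± 0.11) among them. Over all genes the share called higher was 3.96% in the whole gate and 8.49% without DETC-like cells.

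Survival genes were among the 10 largest rises. Bcl2a1b, Bcl2a1d and Bcl2a1a, near-identical copies of the anti-apoptotic gene A1 between which reads are assigned with uncertainty, rose by 1.95 ± 0.16, 2.11 ± 0.15 and 2.46 ± 0.20. Bcl2a1b was at 404, 520, 407 and 1887 CPM in positive and 131, 103, 145 and 512 CPM in negative cells, higher within each library although 21-week-DB was high in both groups. Mir155hg, the host transcript of miR-155, rose from 7.14, 17.5, 22.0 and 65.3 CPM to 67.8, 90.4, 73.2 and 123 CPM without overlap (1.96 ± 0.26, adjusted p = 0.000201, edgeR). Stx11, which encodes a syntaxin of granule release (1.95 ± 0.19), and Gcnt2, a glycan-branching enzyme (1.90 ± 0.20), complete these rises with Il17f, Irf4, Il21r and Pdcd1.

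Pdcd1, which encodes the checkpoint receptor PD-1, was at 74.4, 125, 82.7 and 172 CPM in positive and 32.8, 15.4, 18.1 and 64.9 CPM in negative cells, without overlap (2.02 ± 0.23, adjusted p = 5.31e-05, edgeR). Of 8 checkpoint receptors tested, 3 were higher and none lower. Ctla4, another inhibitory receptor, was at 31.4, 195, 26.8 and 16.5 CPM against 4.28, 15.1, 10.8 and 10.7 CPM (2.32 ± 0.40, adjusted p = 0.00184, edgeR), with the widest gap in 12-week-DB and the narrowest in 21-week-DB. It was detected in 9, 14, 9 and 12 positive cells, and 21 of the 80 UMIs of 12-week-DB lay in 1 cell. Havcr2, which encodes TIM-3, was the third (1.37 ± 0.35) and was higher in 3 of 4 libraries.

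Fewer members were called in the lists of residency and metabolism. Of 16 residency, adhesion and trafficking genes, 4 were higher, led by the chemokine receptor Cxcr4 (301, 469, 374 and 322 CPM against 127, 105, 132 and 136 CPM, 1.65 ± 0.16, adjusted p = 9.18e-06, edgeR) and followed by the integrin Itgav (0.99 ± 0.18), the signalling regulator Rgs1 (0.70 ± 0.17) and the thrombin receptor F2r (0.47 ± 0.12). Rgs1 ran lower in positive than in negative cells of 12-week-DB (2320 and 2625 CPM) and higher in the other libraries, and without DETC-like cells it was higher in all 4 (1.94 ± 0.13). F2r was not called without DETC-like cells (0.19 ± 0.11), where the chemokine receptors Ccr7 (0.79 ± 0.22) and Ccr4 (1.40 ± 0.43) were higher and Podnl1 (-0.91 ± 0.21) lower. Of 16 glycolysis genes, Slc16a3 (1.34 ± 0.24), a lactate exporter, and Gapdh (0.54 ± 0.13) were higher, and without DETC-like cells 6 were, with hexokinase 2 (Hk2) at 1.20 ± 0.12 against 0.06 ± 0.24 in the whole gate. Of 9 genes of amino acid and iron uptake, the arginine transporter Slc7a1 (1.07 ± 0.14) and the polyamine enzyme Odc1 (0.79 ± 0.14) were higher, and without DETC-like cells 6 of 9 were. Between these fits the share called higher also rose over all genes, from 3.96% to 8.49%. Of 17 lipid handling genes, Scd2 alone was called, as lower (-0.75 ± 0.19), and it was not called without DETC-like cells, where Insig1, a regulator of sterol synthesis, was higher (0.72 ± 0.19).

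Of 11 genes of the glucocorticoid response, 5 were higher, led by the receptor Nr3c1 itself (399, 520, 632 and 613 CPM against 301, 273, 360 and 366 CPM, 0.85 ± 0.13, adjusted p = 0.000659, edgeR) and with Zbtb16 (0.84 ± 0.17), Dusp1 (0.80 ± 0.16), Ddit4 (0.69 ± 0.19) and Per1 (0.54 ± 0.13). Ddit4 ran lower in positive cells of 21-week-DB (124 against 151 CPM). Zbtb16 and Dusp1 were also counted in lists above. Among members not called, Tsc22d3 (122, 156, 128 and 137 against 144, 185, 152 and 257 CPM), Fkbp5 and Sgk1 were lower in positive cells of all 4 libraries. Klf9, Mt1 and Mt2 ran both ways. Without DETC-like cells 3 were higher and Fkbp5 was lower. Of 13 MHC class I and interferon genes, Irf1 (0.56 ± 0.16) and H2-K1 (0.46 ± 0.12) were higher, and without DETC-like cells the immunoproteasome subunit Psmb8 was lower as well (-0.48 ± 0.11). Il4ra, the receptor chain for IL-4, was the 1 of 5 type 2 genes called (1.03 ± 0.15), joined by Areg without DETC-like cells. None of 14 tissue repair and growth factor genes was called in the whole gate, and 3 were higher and 1 lower without DETC-like cells, of which Vegfa moved from 0.48 ± 0.31 to 1.73 ± 0.37.

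**Figure D4:**
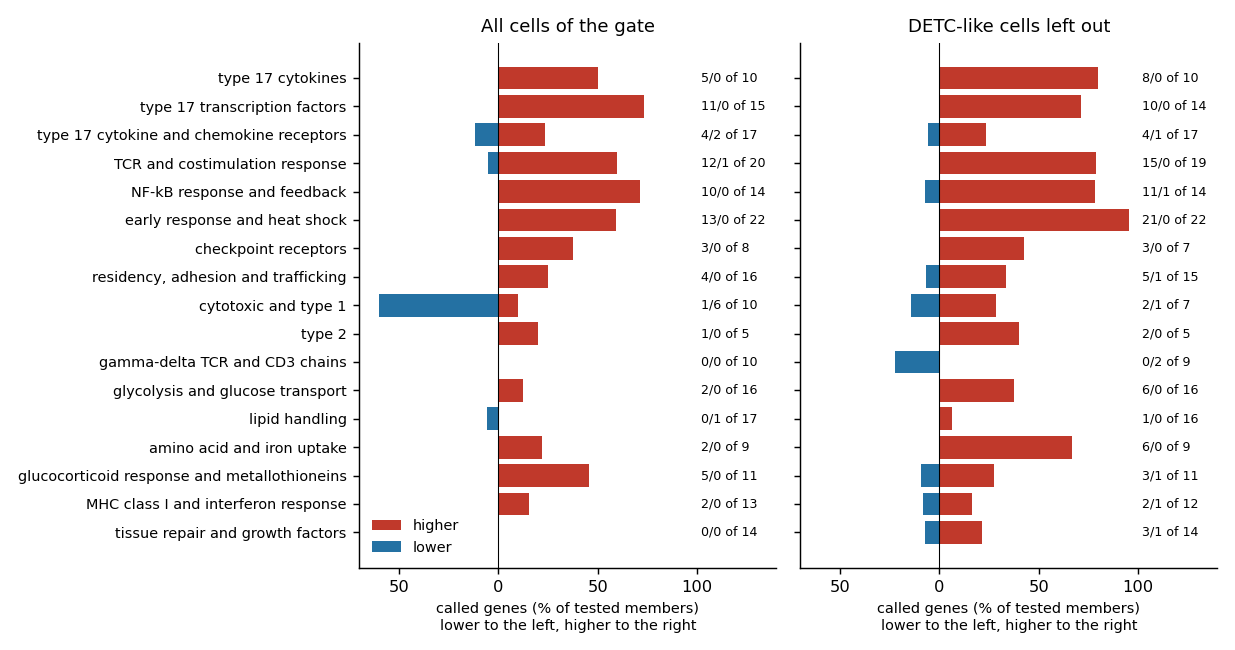
Share of the tested members of each gene list called higher (right of 0) or lower (left of 0) in Il17a-positive cells, for all cells of the gate and with DETC-like cells left out. Labels give higher/lower of tested, without the genes used by the gate. Over all genes 3.96% were higher and 1.96% lower in the whole gate, and 8.49% higher and 2.58% lower without DETC-like cells. In the whole gate, 12 of 20 T cell receptor response genes were higher and 1 lower. Of 10 cytotoxic genes, 1 was higher and 6 lower.

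The largest falls were led by DETC markers, of which Fermt2, Cd7 and Trat1 were called lower. Fermt2 (kindlin-2) had 1, 3, 2 and 0 UMIs in positive cells, against 147, 332, 39.0 and 100 CPM in negative cells. Cd7 was at 29.8, 26.9, 5.51 and 23.8 against 259, 505, 53.3 and 112 CPM (-3.03 ± 0.24, adjusted p = 2.05e-06, edgeR). Both were then used to mark DETC-like cells. Trat1, a receptor-associated adaptor (-3.84 ± 0.41), and Col27a1, a fibrillar collagen with 0, 3, 4 and 0 UMIs in positive cells, were too low to be tested without DETC-like cells. Trf, which encodes transferrin, had 7, 1, 2 and 4 UMIs in positive cells. Fermt2, Col27a1 and Trf passed the filter through the negative cells alone, and their calls as lower carry no fold here. Another DETC marker, Gem, was at 0.00 ± 0.22 in the whole gate and called higher without DETC-like cells (1.37 ± 0.11). Ctla2b (-3.32 ± 0.28) and Ctla2a (-2.54 ± 0.35), similar copies of a protease inhibitor gene, and the receptor genes Fcer1g (-1.96 ± 0.22) and Klrd1 (-1.94 ± 0.25) were lower in all 4 libraries. Without DETC-like cells, Ctla2a was still called lower (-0.85 ± 0.23, adjusted p = 0.0166, edgeR) but Ctla2b, Fcer1g and Klrd1 were not (adjusted p = 0.284, 0.544 and 0.221, edgeR).

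Of 10 cytotoxic and type 1 genes tested, 6 were lower and 1 higher, but 2 of the 6, Il12rb2 and Xcl1, passed the filter through the negative cells alone. Il12rb2, the receptor chain for IL-12, had 1, 2, 0 and 0 UMIs in positive cells and stood at 57.1, 147, 20.5 and 23.0 CPM in negative cells, and the chemokine Xcl1 had 5, 0, 2 and 0 UMIs in positive cells. Nkg7, a granule protein, was at 1.65, 19.5, 4.72 and 35.1 CPM against 150, 292, 41.4 and 92.4 CPM (-2.78 ± 0.38, adjusted p = 0.000262, edgeR). Perforin (Prf1, -2.35 ± 0.41, with 5, 0, 4 and 11 UMIs in positive cells) and the cathepsin Ctsw (-1.09 ± 0.19) were lower too. Granzyme B (Gzmb) ran the other way, at 64.5, 48.8, 21.3 and 63.0 CPM against 8.93, 8.83, 8.67 and 29.2 CPM (1.92 ± 0.28, adjusted p = 0.000364, edgeR), and was also higher without DETC-like cells (2.50 ± 0.47). At 12 weeks this rested on single cells, since 33 of the 39 Gzmb UMIs in positive cells of 12-week-WT and 17 of the 20 in 12-week-DB lay in 1 cell each. In the fit without DETC-like cells 7 members were tested, 2 were higher (Gzmb and Klrk1), and Nkg7 was the 1 gene lower (-1.11 ± 0.30, adjusted p = 0.0191, edgeR).

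Of the γδ receptor and CD3 chains that the gate did not use, 10 were tested and none was called in the whole gate (edgeR). Without DETC-like cells Tcrg-C2 (-0.52 ± 0.16) and Tcrg-C4 (-0.68 ± 0.20) were called lower. The same split was made within cells in which Tcrg-V6 was detected (10, 12, 12 and 49 positive cells), where 394 genes were higher and 51 lower, and within the cells in which it was not, where 295 were higher and 190 lower.

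Markers of other cells were not absent. All 5 mast cell markers were called lower in positive cells (Cma1 at -2.57 ± 0.31), 3 of which passed the filter through the negative cells alone, and 2 of the 3 tested without DETC-like cells were lower there. Their summed level was 22.0 to 36.3 CPM in positive and 97.5 to 335 CPM in negative cells, and Tpsb2 was at 0 in the positive cells of 12-week-DB. Of the B cell markers Ighm was lower, with a summed list level of 9.74 to 46.4 CPM against 30.8 to 89.6 CPM, and in the positive cells of 21-week-DB only Igkc was above 0. The 5 macrophage markers summed to 91.2 to 226 against 124 to 332 CPM. Of these, C1qa, C1qb and C1qc were limited by the gate and the other 2 were not called. The antigen-presenting cell markers, of which MHC class II genes and Cd74 gave nearly the whole sum, were at 3343, 421, 1183 and 753 CPM in positive and 1580, 1591, 3401 and 1186 CPM in negative cells, higher in positive cells of 12-week-WT and lower in the others, and none was called (Cd207 had 0 to 4 UMIs in positive cells). No neutrophil marker was called (23.6 to 41.3 against 12.8 to 83.3 CPM). The summed markers of group 2 innate lymphoid cells (ILC2), among them Areg, were at 560, 451, 979 and 1173 CPM in positive and 431, 608, 539 and 611 CPM in negative cells. Of its 5 members, the transcription factor Hlf (0.48 ± 0.13) and the neuropeptide gene Calca (1.62 ± 0.37, with 3, 1, 32 and 43 UMIs in positive cells) were called higher. Areg and Hlf gave most of the sum. Il13 was at 4.96, 4.88, 2.36 and 33.05 CPM in positive and 31.1, 39.5, 9.15 and 25.97 CPM in negative cells. Il1rl1 was at 4.96, 2.44, 3.94 and 20.7 against 12.9, 21.6, 17.8 and 18.2 CPM. Both ran lower in positive cells of every library but 21-week-DB, and neither was called. Without DETC-like cells Calca was too low to be tested and Hlf was not called (0.17 ± 0.11). The part of these cells in the results was not tested. With all cells that held at least 2 UMIs of such markers left out, 137 genes were higher and 29 lower, but 7, 4, 17 and 82 positive cells were left. Of 5 cycling markers, Stmn1 (1.05 ± 0.20), Birc5 (1.07 ± 0.26) and Top2a (0.95 ± 0.24) were higher, with Mki67 detected in 19.4%, 32.1%, 18.4% and 8.67% of positive and 12.6%, 10.6%, 16.5% and 8.33% of negative cells, so that the gap was wide in 12-week-DB and nearly absent in 21-week-DB. Without DETC-like cells Cdk1 was called higher too (0.98 ± 0.31).

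The difference between positive and negative cells was then compared between genotypes and between ages, with 2 libraries on each side. Between DB and WT, 0 of 9613 genes differed at an adjusted p under 0.05 (edgeR), although 245 did at an unadjusted p under 0.05, and DESeq2 also called 0. On simulated counts with a dispersion of 0.05, the comparison between ages recovered 0% of 2-fold and 36% of 4-fold changes. The comparison between genotypes has as many libraries on each side, so 0 calls do not show that the genotypes were alike. Leaving out 21-week-DB gave 12 genes with a greater and 23 with a smaller difference in DB, leaving out 12-week-DB gave 7 and 1, and leaving out 12-week-WT gave 5 and 1. In these fits 1 genotype is a single library, which is assumed to vary like the other 2. Il17f differed by 0.58 on the log2 scale between the genotypes, with an unadjusted p of 0.306 in edgeR's test across all genes.

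Between 21 and 12 weeks, 56 genes had a greater positive-minus-negative difference at 21 weeks (0.583% of those tested) and 5 a smaller one (0.052%). The difference is signed, so a gene whose fall in positive cells was narrower at 21 weeks also counts as greater. The smallest p-values belonged to Ctla2a, Ramp3 (part of the receptor for calcitonin gene-related peptide and adrenomedullin), Jmy (an actin regulator), Sytl3 (a vesicle-transport protein) and Adrb1 (the β1-adrenergic receptor). Ctla2a was lower in positive cells of every library, with log2 ratios of -4.06, -4.07, -1.52 and -1.65, so its gap was narrower at 21 weeks. Sytl3 was at 205, 298, 375 and 701 CPM in positive and 325, 643, 187 and 391 CPM in negative cells, lower in positive cells at 12 weeks and higher at 21 weeks. Jmy (69.5, 225, 132 and 302 against 176, 511, 83.8 and 203 CPM), Ramp3 (26.5, 36.6, 129 and 294 against 53.6, 108, 61.3 and 156 CPM) and Adrb1 (29.8, 36.6, 44.1 and 72.3 against 125, 132, 39.3 and 44.8 CPM) crossed in the same way. The 5 genes with a smaller difference at 21 weeks were Irf4, Ctla4, Tnfsf9 (the ligand of 4-1BB) and the chemokines Cxcl1 and Cxcl10. For Irf4 the ages differed by -1.38 ± 0.28 (adjusted p = 0.0241, edgeR), with positive cells above negative cells in every library at both ages.

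Without DETC-like cells, 0 genes had a greater and 2 a smaller difference at 21 weeks by edgeR (451 of 8882 at an unadjusted p under 0.05). The 2 were Ctla4 (-3.82, adjusted p = 0.0094) and Gzmb (-5.21, adjusted p = 0.000712), both carried by few positive cells, and Irf4 was at -1.51 (adjusted p = 0.125). Sytl3 was then at 186, 306, 363 and 707 CPM in positive and 80.8, 94.5, 130 and 304 CPM in negative cells, higher in positive cells at both ages (1.50 ± 0.12, adjusted p = 9.9e-09, edgeR), and Jmy was likewise higher in all 4 libraries (1.54 ± 0.15, adjusted p = 2.84e-07, edgeR). Leaving out 12-week-DB, the library in which DETC-like cells made up 58.1% of the negative cells, gave 8 genes with a greater and 8 with a smaller difference at 21 weeks, with 12-week-WT then the only library of its age and assumed to vary like the others. Age and the Cell Ranger version cannot be told apart in these libraries.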

How the data were processed

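CD45+ cells of 4 hindpaw libraries were measured by 10x single-cell RNA-seq. The authors aligned the reads to mm10 and deposited raw UMI counts per gene and barcode. The submitters' processing notes name Cell Ranger 5.0.0. The study's methods name decontX for ambient RNA and Seurat for normalization after alignment. Neither was applied here to the deposited counts, which are whole numbers, and no doublets were removed in the main comparison. The gate and the split are given above. The members and the gene lists were chosen with earlier results of these data known. Grouping followed the labels' genotype and age class, with the weeks from the paper.

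Counts were summed per group and library without Il17a (404 to 1224 negative and 53 to 150 positive cells, 409487 to 7471560 UMIs a sum). They were tested in R 4.3.3 with edgeR 4.0.16 (TMM scaling, filterByExpr by Il17a state, quasi-likelihood F-test, library as blocking factor, calls at a Benjamini-Hochberg adjusted p below 0.05) after a test on simulated counts. Interaction terms of Il17a state with genotype or age used the same sums. The positive and negative sums of a number came from the same library, which gives the pairing. CPM are counts per 1000000 UMIs of the summed cells. Shares carry exact Clopper-Pearson intervals at 95%, and a count of 0 allows up to 3 counts. The p-values measure the spread between these 4 libraries of pooled mice, with a variance that edgeR moderates across genes. The SE after ± is the size of the log2 difference divided by the square root of the test's F value. It carries that moderation and can be narrower than the spread of the 4 library ratios.

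Genes named were the 10 largest rises and falls of called genes whose mean was 50 CPM or more and whose 4 libraries moved alike, up to 4 called members of each list with the largest change, every type 17 cytokine and transcription factor (except 1 gene that is not reported here and was left out of its list), the gate genes, and up to 5 called genes of each interaction by p. Other genes named were chosen after their values were seen. DETC-like cells were defined, and shared barcodes left out, after seeing the data. Alternatives were other scalings, DESeq2 1.42.0, no filter, no block, each library left out, other thresholds on Il17a, genes and mitochondrial UMIs, thinned or depth-matched cells, Scrublet (scanpy 1.11.5, which removed 4.80 to 7.30% of the cells at a set rate because its own threshold marked at most 0.0305%), cells with other-lineage markers, Trac or Tcrg-V6 left out, and Tcrg-V6 cells alone.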

Additional observations from a re-analysis of the deposited data

Results flagged for a closer look

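The 4 within-library log2 ratios of each of 91 named genes were searched for a library that stood apart by Dixon's criterion, which chance meets in about 1 group in 20. It was met by 3 genes (3.30%). Fcer1g was at -3.35 in 12-week-DB against -1.83 to -1.55 in the others. Atf3 was at 0.55 in 12-week-WT against 1.08 to 1.18, and Rora at 0.54 in the same library against 1.13 to 1.21.

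Over all genes tested, edgeR's interaction test called 56 with a greater and 5 with a smaller positive-minus-negative difference at 21 weeks. Among the genes named by rule, this signed difference was greater at 21 than at 12 weeks in 5. For Ctla2a, lower in positive cells of every library, greater means a narrower gap. On the log2 scale the ages differed by 2.48 ± 0.26 (SE) for Ctla2a (adjusted p = 0.000122), 2.28 ± 0.29 for Ramp3 (adjusted p = 0.000631), 1.84 ± 0.23 for Jmy (adjusted p = 0.000631), 1.79 ± 0.22 for Sytl3 (adjusted p = 0.000631) and 2.39 ± 0.34 for Adrb1 (adjusted p = 0.00161). None of these 5 was called without DETC-like cells (edgeR, adjusted p of 0.725 to 0.98), where the ages differed by 1.73 for Ctla2a, 0.88 for Ramp3, -0.41 for Jmy, -0.17 for Sytl3 and 1.55 for Adrb1. It was smaller at 21 weeks for Irf4 (-1.38 ± 0.28, adjusted p = 0.0241) and Ctla4 (-2.49 ± 0.44, adjusted p = 0.00953), and without DETC-like cells for Ctla4 (-3.82, adjusted p = 0.0094) and Gzmb (-5.21, adjusted p = 0.000712). Most Gzmb UMIs of the positive cells lay in 1 cell in both 12-week libraries (33 of 39 and 17 of 20).

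Outside the gate, 94 of the 516 cells with at least 2 Il17a UMIs were found (9, 15, 36 and 34 in the 4 libraries). Of these, 56 had no Trdc UMI, 42 of which had Trac, 23 held at least 5 C1q UMIs, and 17 had neither Cd3e nor Cd3g.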

How the results depend on the processing

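The counts of genes higher and lower in positive cells (381 and 188) stayed within 1.5 times under most alternatives. The exceptions were no replicate block, which dropped the pairing within libraries (85 and 22), cells with other-lineage markers left out (137 and 29), DETC-like cells left out (754 higher), DESeq2 (117 lower), no filter on low counts (442 lower), thinned cells (96 lower), cells with Tcrg-V6 only (51 lower) and DETC-like cells left out of thinned cells (87 lower), 21-week-DB left out (214 higher) and 21-week-WT left out (248 higher). Leaving out 1 library gave 214 to 543 higher and 135 to 170 lower. No call with a value turned under another scaling, DESeq2, no filter, no block or a library left out. The difference between genotypes gave 0 to 12 greater and 0 to 23 smaller genes with 1 library left out. The difference between ages gave 28 greater genes in thinned cells, 0 greater and 2 smaller without DETC-like cells, and 8 to 68 greater and 8 to 11 smaller with 1 library left out.

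Among the calls of the whole gate with a value, the sign turned for 22 of 409 in cells with Tcrg-V6, 21 of 497 without DETC-like cells, 10 of 371 in thinned cells without DETC-like cells, 4 of 354 with other-lineage cells left out and 1 of 439 in thinned cells. Among the genes named by rule, the calls that turned were Ctla2a (0.76), Fcer1g (0.29), Klrd1 (1.04) and Ddit4 (-0.061) in cells with Tcrg-V6. In those cells Sox13 was at -0.19, Il23r at -0.22, Blk at -0.056 and Jmy at 1.95. Without DETC-like cells Sox13 was at -0.11, Ahr at 0.070, Jmy at 1.54 and Adrb1 at 0.25, and the age differences of Jmy and Sytl3 were -0.41 and -0.17. With those cells left out of thinned cells Csf2 was at -0.11, Sox13 at -0.016, Blk at -0.10, Jmy at 1.51 and Adrb1 at 0.24. With other-lineage cells left out Maf was at -0.19 and Sox13 at -0.046, without cells with Trac C1qc at 0.012, and without cells with Tcrg-V6 Sytl3 at -0.088. Leaving out 1 library changed the sign of C1qa (-0.21 to 0.024), C1qb (-0.028 to 0.33), C1qc (-0.33 to 0.22), Ramp3 (-0.059 to 0.78), Jmy (-0.45 to 0.25), Sytl3 (-0.13 to 0.59) and Adrb1 (-0.97 to 0.00048). The causes were not tested.

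Precision was limited by 53 to 150 positive cells a library, by pooled mice and by the lack of replicate libraries per condition. Cells with few Il17a transcripts can be counted as negative at these depths.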
